A study of Mus musculus with 23 samples.

Results

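Expression of 9 genes of the tumour necrosis factor (TNF) superfamily was followed in macrophages grown from mouse bone marrow (BMDMs), either wild-type or from animals whose label reads Selenow knock-out. The genes come from a list of names and comprise 6 ligands (Tnf, Lta, Ltb, Tnfsf9, Tnfsf10 and Tnfsf15) and 3 receptors (Tnfrsf1a, Tnfrsf1b and Tnfrsf11a) out of 55401 genes in the count table. All 9 passed the filter on low counts, as did 18083 genes in all. The cells were left without treatment (0 h) or received lipopolysaccharide (LPS), a bacterial ligand of Toll-like receptor 4, for 4, 8 or 24 h at a dose of 100 ng/ml. RNA-seq gave 23 libraries in 8 groups: 3 for either genotype at every time, but 2 for the labelled knock-out at 24 h. Strain, age and the form of the Selenow allele are not given in the sources used here. All libraries at 4, 8 and 24 h had LPS, so its effect and time in culture cannot be told apart, and a drop in transcripts per cell cannot be told apart from a loss of the cells that carry them.

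TNF superfamily ligands are mostly made as trimeric proteins anchored in the cell membrane, and some are cut loose by proteases. They bind receptors, most of which recruit adaptor proteins to switch on NF-kB and MAP kinases. Some of these receptors carry a death domain and can also start cell death. In macrophages, Tnf is an early target of Toll-like receptor signalling, and its product acts back on the same cells through the receptors encoded by Tnfrsf1a (TNFR1) and Tnfrsf1b (TNFR2). Tnfrsf11a encodes RANK, through which the ligand RANKL turns macrophage precursors into bone-resorbing osteoclasts.

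In the GRCm38 annotation of the count table, Ltb (chromosome 17, 35194439 to 35196320, plus strand), Tnf (17, 35199381 to 35202007, minus) and Lta (17, 35203165 to 35205351, minus) lie side by side. Tnfsf9 is also on chromosome 17 (57105325 to 57107757, plus). Tnfsf10 is on chromosome 3 (27317028 to 27342427, plus) and Tnfsf15 on chromosome 4 (63724603 to 63745113, minus). The receptor genes Tnfrsf1a, Tnfrsf1b and Tnfrsf11a are on chromosome 6 (125349362 to 125362484, plus), chromosome 4 (145213463 to 145246870, minus) and chromosome 1 (105780718 to 105847981, plus). Counting did not use strand. The exons of Tnfsf9 share 192 bases, 14.9% of its exonic length, with the opposite-strand gene Gm11110, so the Tnfsf9 counts may include reads of that gene. No other member shares exonic bases with another gene of the table.

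Promoter sequence, taken as the 250 bases before the RefSeq start on GRCm38.p6, matched 8 of the 9 members, all but Tnfsf9. Shown 5′ to 3′ on the gene's own strand are Tnf (chr17:35202008-35202257, minus strand) and its neighbour Lta (chr17:35205352-35205601, minus), which both rose steeply with LPS, Tnfrsf1b (chr4:145246871-145247120, minus), of the member receptors the one with the largest response, and Tnfrsf11a (chr1:105780473-105780722, plus), the member that differed between genotypes. Capitals mark matches to TATAAA or to a pair of GAAA elements 2 bases apart, as in interferon response elements, read on either strand.
Tnf: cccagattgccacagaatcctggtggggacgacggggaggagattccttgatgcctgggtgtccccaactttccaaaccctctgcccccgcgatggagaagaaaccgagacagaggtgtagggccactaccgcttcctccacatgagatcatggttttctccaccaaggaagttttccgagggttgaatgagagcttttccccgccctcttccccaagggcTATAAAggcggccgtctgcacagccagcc
Lta: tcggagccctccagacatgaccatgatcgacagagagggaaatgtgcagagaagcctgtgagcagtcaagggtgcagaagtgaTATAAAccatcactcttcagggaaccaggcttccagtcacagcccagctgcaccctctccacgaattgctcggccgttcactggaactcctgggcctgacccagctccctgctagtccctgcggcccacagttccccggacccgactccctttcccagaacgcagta
Tnfrsf1b: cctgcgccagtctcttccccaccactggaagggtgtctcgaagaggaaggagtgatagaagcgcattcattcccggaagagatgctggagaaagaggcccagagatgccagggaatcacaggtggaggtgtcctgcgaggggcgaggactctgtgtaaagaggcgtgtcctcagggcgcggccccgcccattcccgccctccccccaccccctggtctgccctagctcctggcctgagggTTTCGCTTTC
Tnfrsf11a: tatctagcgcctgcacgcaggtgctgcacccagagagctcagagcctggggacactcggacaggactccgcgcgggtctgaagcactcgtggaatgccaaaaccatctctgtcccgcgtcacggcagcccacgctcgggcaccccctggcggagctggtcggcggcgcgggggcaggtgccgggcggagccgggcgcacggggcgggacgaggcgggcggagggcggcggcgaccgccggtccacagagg

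The letters TATAAA lie 29 bases upstream of the start in Tnf and 167 bases upstream in Lta. They occur in 12.4% of 32841 promoter windows of the same length. The GAAA pair lies 10 bases upstream of Tnfrsf1b, where it reads TTTCGCTTTC on the gene's strand, and occurs in 2.98% of windows. An NF-kB consensus is in 7.25% of windows and, among the members, was matched in the Ltb window alone (GGAAAGTCCC, 87 bases upstream). The letters TTCNNNGAA were found in 4 members (Lta, Ltb, Tnfrsf1a and Tnfrsf1b) and in 7.02% of windows. Neither TGANTCA (6.75% of windows) nor TGACGTCA (1.55%) was found in the window of any member, and no match in a member's window overlapped one of another kind. These are matches of letters, and binding of a factor was not measured.

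Libraries held between 39001456 and 41819953 counted read pairs, and 3 counts correspond to between 0.0537 and 0.0926 CPM (counts scaled to the TMM-adjusted library size), which covers counting error only. Selenow in the wild-type libraries was at 85.3 to 113% of the wild-type mean of the same time. In 7 of the 11 labelled knock-out libraries it was at 32.6 to 63.9%, whereas in 4 (libraries 13, 16, 19 and 22, 1 at each time) it was at 82.4 to 102%. In these 4 the transcript level was near wild-type despite the label. The form of the allele is not given, so the label cannot be judged from that level. Comparisons between genotypes were also run without these 4. Values from those runs are given for Tnfrsf11a and some other genes, not for every result. A second division cut across genotype. At each time 1 wild-type and 1 labelled knock-out library (3 and 14, 6 and 17, 9 and 20, 12 and 23) deviated from their group means in the same way, with r from 0.728 to 0.802 over genes on even-numbered chromosomes after pairing on odd-numbered ones. These 8 libraries are called the smaller set and the other 15 the larger set. Each pair was the most alike of its time, and odd-numbered and even-numbered chromosomes come from the same libraries. Whether the pairs of different times belong together was not tested. The labels do not name the sets, nor do they say whether libraries of a group came from separate mice or cultures, so p-values measure the spread between these libraries. All 8 macrophage markers were above 1 CPM in every group, and of 8 T cell markers Cd3d, Cd3e and Cd3g were at most 0.0618 CPM in any library, Cd8a, Cd8b1 and Trac at most 0.406 CPM, while Cd4 (up to 10.4 CPM) and Lck (up to 23.8 CPM) were detected in every library. The summed level of these 8 was 2.49 to 10.7 CPM untreated, 13.1 to 30.1 at 4 h, 6.74 to 9.63 at 8 h and 1.21 to 2.23 at 24 h over both genotypes. The test throughout was edgeR's quasi-likelihood F-test on all 23 libraries, and a gene was called at a Benjamini-Hochberg adjusted p under 0.05 over 18083 genes. Errors of log2 fold changes are standard errors.

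Tnf, the founding ligand of the family, rose within 4 h of LPS and fell again over the following hours. Untreated wild-type libraries 1, 2 and 3 were at 12.8, 14.4 and 25.8 CPM. At 4 h, libraries 4, 5 and 6 were at 1285, 1393 and 3301 CPM. The lowest treated library was far above the highest untreated one, and library 6, of the smaller set, was well above its companions. The fitted change was 113-fold (log2 6.82 ± 0.62, adjusted p = 2.05e-08). At 8 h the wild-type libraries were at 291, 273 and 673 CPM (log2 4.54 ± 0.56 over 0 h), and at 24 h at 54.8, 47.2 and 70.3 CPM (log2 1.70 ± 0.50, adjusted p = 0.00752). The mean thus stood at 20.7% of its peak at 8 h and at 2.88% at 24 h, and both falls passed the test (adjusted p = 0.00119 from 4 to 8 h and 0.000238 from 8 to 24 h). Labelled knock-out cells had Tnf at 14.9, 32.2 and 16.6 CPM untreated, 1471, 2881 and 1545 at 4 h, 277, 719 and 257 at 8 h, and 38.2 and 70.9 at 24 h. The labelled knock-out libraries overlapped the wild-type range at each time, and in each of the 8 groups the highest library was from the smaller set. The knock-out rise at 4 h was 92.6-fold (log2 6.53 ± 0.61, adjusted p = 3.08e-08), and that at 8 h (log2 4.30 ± 0.55) was 3.65 without library 20. Its remaining difference at 24 h (log2 1.36 ± 0.54, adjusted p = 0.0469) was no longer called without library 13, 15 or 23 (adjusted p = 0.142, 0.129 and 0.366) or without the 4 libraries with near wild-type Selenow (log2 1.54, adjusted p = 0.12, with library 23 as the only one left at 24 h), and it lay at adjusted p = 0.0646 with upper-quartile scaling.

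Lta encodes lymphotoxin alpha, a soluble relative of TNF that binds the same receptors. Like Tnf it rose within 4 h, from an untreated level near the detection limit, but at 8 h it kept 73.7% of its wild-type peak mean where Tnf kept 20.7%. Untreated wild-type libraries held 5, 5 and 2 counts (0.0936, 0.0923 and 0.0379 CPM), and the 4 h libraries 71, 60 and 108 counts (2.12, 1.77 and 2.86 CPM). The ranges did not overlap, and the change was 29-fold (log2 4.86 ± 0.70, adjusted p = 6.77e-06). At 8 h Lta was at 1.23, 1.39 and 2.35 CPM, within reach of the 4 h libraries (8 against 4 h, adjusted p = 0.515). At 24 h it was at 0.232, 0.156 and 1.36 CPM. Library 12 of the smaller set thus held most of the reads of that group, and without it the rise at 24 h over 0 h (log2 2.90 ± 0.74, adjusted p = 0.0027) was 1.33 and not called (adjusted p = 0.0978), while the fall from 8 to 24 h (log2 -1.52 ± 0.56) was -3.08. Labelled knock-out libraries had Lta at 0.0956, 0.0896 and 0.118 CPM untreated, 1.64, 3.17 and 1.72 at 4 h (log2 4.40 ± 0.67, adjusted p = 1.45e-05), 1.07, 2.80 and 1.37 at 8 h, and 0.154 and 0.305 at 24 h (log2 1.16 ± 0.85 over 0 h, adjusted p = 0.291).

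Ltb encodes lymphotoxin beta, which anchors lymphotoxin alpha in the membrane as a ligand of the lymphotoxin beta receptor, and it did not follow its neighbours. In wild-type cells it was at 0.393, 0.424 and 0.436 CPM untreated and at 0.328, 0.296 and 0.344 CPM at 4 h, a log2 difference of -0.37 ± 0.32 that was not called (adjusted p = 0.334). It was at 0.752, 0.708 and 0.735 CPM at 8 h (log2 0.80 ± 0.30 over 0 h, adjusted p = 0.0253) and at 0.139, 0.290 and 0.297 CPM at 24 h. The 8 h libraries were the highest of this genotype, and the 24 h libraries lay below those at 0 h and overlapped those at 4 h. The difference at 24 h (log2 -0.78 ± 0.33) had an adjusted p of 0.0499 and was lost without any of libraries 1, 2, 3 and 10 (adjusted p from 0.0708 to 0.22), and the difference at 8 h was lost without library 1, 2, 7 or 9 (from 0.0513 to 0.0675). These libraries held only 6 to 25 counts of Ltb. Ltb in the labelled knock-out was at 0.478, 0.305 and 0.610 CPM untreated, 0.556, 0.839 and 0.585 at 4 h, 0.506, 0.780 and 0.522 at 8 h, and 0.397 and 0.211 at 24 h, and no difference from 0 h was called. Lymphocytes are a known source of Ltb. Of the B cell markers, Ighm was at 128 ± 19.4 CPM in wild-type and 165 ± 17.7 CPM in labelled knock-out cells untreated (SD, n = 3 each), and at 0.49 ± 0.45 (n = 3) and 0.46 ± 0.09 CPM (n = 2) at 24 h. Cd22 was at 1.43 to 7.23 CPM over all libraries and Cd79b at up to 2.21 CPM, both detected in each. Cd79a, Ms4a1 and Pax5 were at most 0.567 CPM in any library, and Blk was at 0 in 19 libraries. Their part in the Ltb level was not tested.

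Tnfsf10 encodes TRAIL, which can trigger apoptosis through death receptors, and it had one of the largest responses. Wild-type libraries were at 2.56, 2.66 and 3.47 CPM untreated and at 534, 564 and 537 CPM at 4 h, a 188-fold rise (log2 7.55 ± 0.58, adjusted p = 2.41e-09). The 3 libraries at 4 h were close together, unlike those of Tnf. At 8 h they were at 128, 91.0 and 187 CPM, and at 24 h at 11.8, 11.2 and 49.6 CPM, still above 0 h (log2 3.06 ± 0.48, adjusted p = 3.27e-05). Libraries 9 and 12 of the smaller set were the highest at these times, and without library 12 the rise at 24 h was 1.98, still called, and the fall from 8 to 24 h (log2 -2.49 ± 0.46) was -3.57. Levels in the other genotype were 2.79, 1.58 and 3.78 CPM untreated, 551, 443 and 466 at 4 h (179-fold, log2 7.49 ± 0.58), 72.6, 127 and 77.1 at 8 h, and 7.86 and 13.4 at 24 h. The rise at 24 h in this genotype (log2 1.97 ± 0.51, adjusted p = 0.00418) was not called without library 23 (log2 1.54, adjusted p = 0.0706).

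Tnfsf15 encodes TL1A, a ligand that costimulates T cells, and its fitted fold change in wild-type cells at 4 h was above those of the other 8 genes, although in the larger set alone it was below Tnfsf10 (log2 7.55 against 7.75). It was at 0.524, 0.572 and 0.398 CPM untreated and at 100.6, 100.9 and 193 CPM at 4 h, a 262-fold rise (log2 8.03 ± 0.68, adjusted p = 7.66e-09). At 8 h it had fallen to 11.6, 8.07 and 25.1 CPM, 11.4% of the peak mean (8 against 4 h, log2 -3.14 ± 0.52, adjusted p = 7.38e-05). At 24 h it was at 7.55, 6.18 and 18.04 CPM, which overlaps the 8 h range. The log2 rise at 24 h (4.40 ± 0.61) was 3.77 without library 12, and at 8 h (4.89 ± 0.62) it was 4.29 without library 9. It was in the labelled knock-out at 0.612, 0.591 and 1.46 CPM untreated, 136, 174 and 103 at 4 h (156-fold, log2 7.28 ± 0.65), 7.49, 16.1 and 8.38 at 8 h, and 3.37 and 10.3 at 24 h. Its rise at 24 h there (log2 2.95 ± 0.60) was 1.93 without library 23 and 3.55 without library 22, both called. The untreated labelled knock-out libraries were all above the wild-type ones, by a log2 difference of 0.82 ± 0.66 that was not called (adjusted p = 0.706).

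Tnfsf9, the ligand of the costimulatory receptor Tnfrsf9, moved less and did not return to its untreated level. Wild-type libraries were at 10.1, 12.3 and 24.2 CPM untreated, 55.4, 60.2 and 40.3 at 4 h (3.34-fold, log2 1.74 ± 0.33, adjusted p = 0.00015), 30.7, 35.4 and 34.8 at 8 h, and 43.3, 40.9 and 43.4 at 24 h (log2 1.45 ± 0.33, adjusted p = 0.00106). All treated libraries were above all untreated ones. Library 3 of the smaller set was the highest untreated library and library 6 of that set the lowest at 4 h. Labelled knock-out libraries were at 8.83, 17.8 and 5.89 CPM untreated, 77.2, 43.1 and 71.2 at 4 h (5.87-fold, log2 2.55 ± 0.34), 30.2, 30.4 and 33.4 at 8 h, and 38.4 and 38.9 at 24 h. Here too the library of the smaller set was the highest untreated one and the lowest at 4 h.

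**Figure D1:**
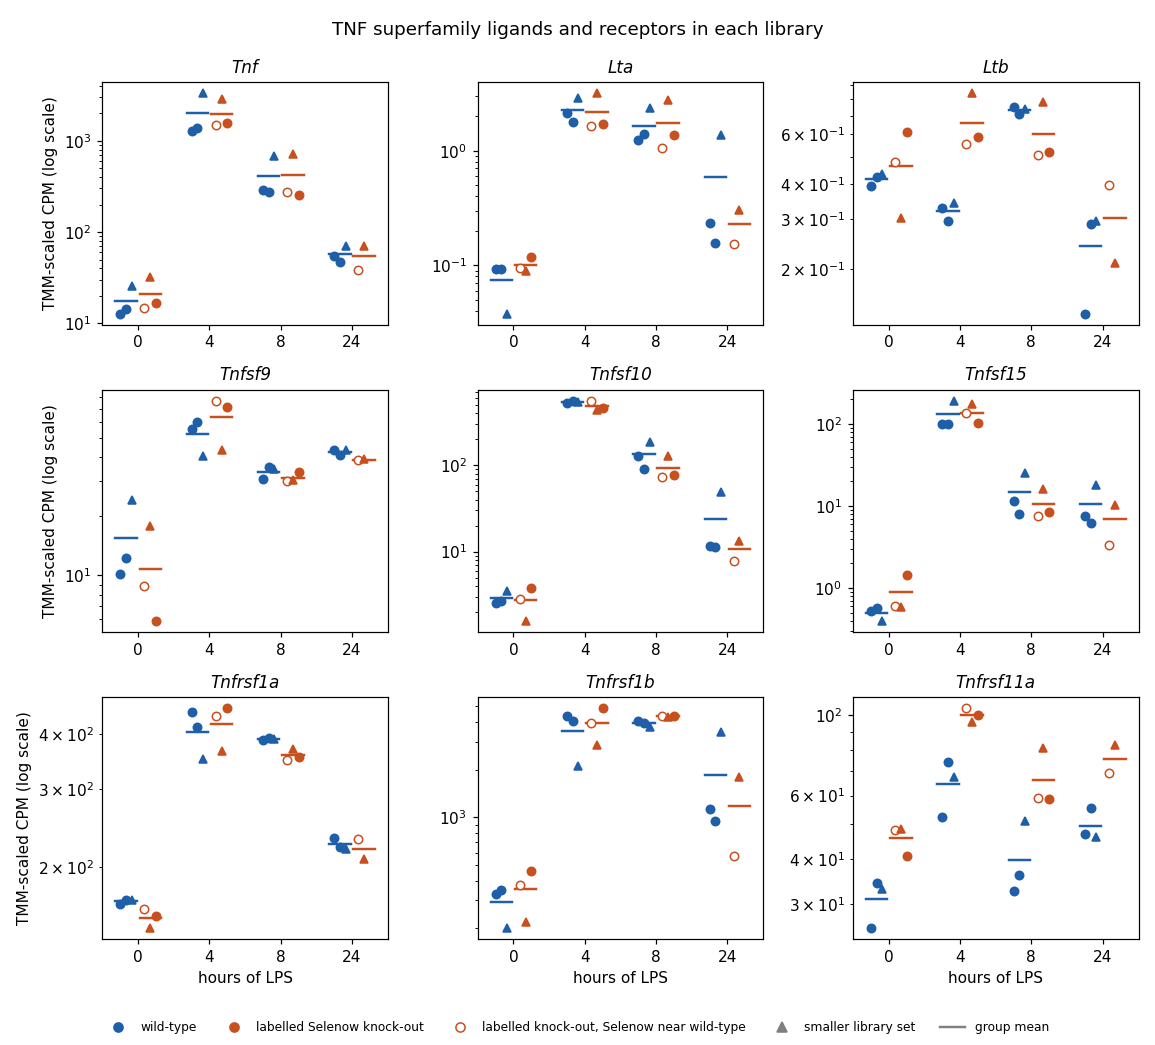
TMM-scaled CPM (log scale) of the 9 genes in each of the 23 libraries against hours of LPS, with group means as bars, wild-type in blue, labelled knock-out in orange and the smaller library set as triangles. Tnf, Tnfsf10 and Tnfsf15 peak at 4 h and drop steeply, Lta keeps 73.7% (wild-type) and 80.2% (labelled knock-out) of its peak mean at 8 h, the levels of Ltb stay below 1 CPM, and the labelled knock-out libraries of Tnfrsf11a lie above those of wild-type at each time.

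Counted over the members, 8 of 9 rose in wild-type cells at 4 h, with Ltb the exception, beside 28.2% of all genes tested that rose. The members were chosen with earlier results of these data known, so such counts describe them and are no test of the family. At 8 h again 8 rose (30.3% of all genes), here with Tnfrsf11a as the exception (log2 0.36 ± 0.17, adjusted p = 0.0736). At 24 h 8 rose (27.8% of all genes) and Ltb fell (27.3% of all genes fell). The call of Ltb was lost in 11 of 14 alternative runs at 24 h and in 6 of 14 at 8 h. In the labelled knock-out 8 rose at 4 h (28%), 8 at 8 h (28.3%) and 7 at 24 h (22.6%). Ltb was outside the count each time, and Lta also at 24 h. Without library 23 the labelled knock-out at 24 h rests on library 22 alone. Fewer members were then called, and calls over all genes at 24 h against 0 h were also fewer in every fit without 1 library. The median log2 difference of the 9 genes at 4 h in wild-type cells was 3.58, beside -0.12 for all genes tested. From 4 to 8 h in wild-type cells, Tnf, Tnfsf10, Tnfsf15 and Tnfrsf11a fell (22.8% of all genes fell) and Ltb rose (24% rose), and from 8 to 24 h Tnf, Lta, Ltb, Tnfsf10 and Tnfrsf1a fell (21.9%). The labelled knock-out had 5 members that fell from 4 to 8 h (22.8%): Tnf, Tnfsf9, Tnfsf10, Tnfsf15 and Tnfrsf11a. From 8 to 24 h 6 fell (16.8%): Tnf, Lta, Ltb, Tnfsf10, Tnfrsf1a and Tnfrsf1b. Some of these falls rested on single libraries. That of Lta in wild-type cells was lost without library 9, 10 or 11 (adjusted p = 0.144, 0.144 and 0.143), and in the labelled knock-out those of Lta and Tnfrsf1b were lost without library 22 (0.075 and 0.164), that of Ltb without library 20 or 23 (0.16 and 0.332) and that of Tnfsf9 from 4 to 8 h without library 16 (0.0603). Without the 4 libraries with near wild-type Selenow, fewer members fell in each of these knock-out comparisons. The one from 8 to 24 h then rests on library 23 alone at 24 h, and its calls over all genes were also fewer. For the one from 4 to 8 h, calls over all genes in that run are not listed here.

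**Figure D2:**
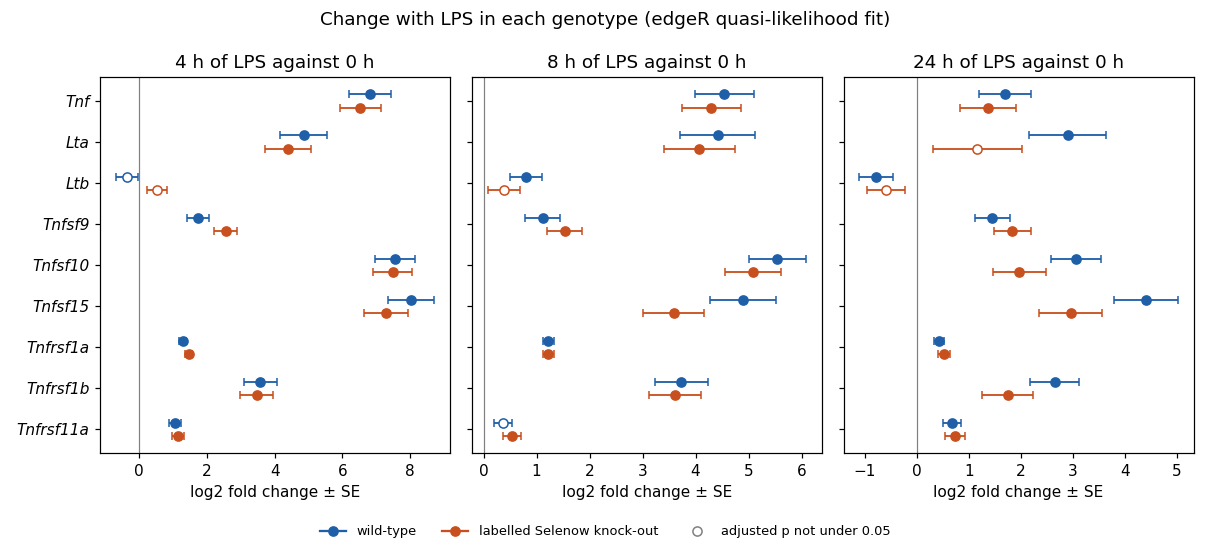
Log2 fold change ± SE of each gene at 4, 8 and 24 h of LPS against 0 h in wild-type (blue) and labelled knock-out (orange) cells, with open points for values that were not called. The ligands Tnf, Lta, Tnfsf10 and Tnfsf15 and the receptor Tnfrsf1b stand far to the right at 4 and 8 h, while Tnfrsf1a and Tnfrsf11a change by less than 1.5 log2 units.

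Of the receptors that bind TNF, Tnfrsf1b rose steeply and stayed high to 8 h, whereas Tnfrsf1a rose by at most 2.75-fold. Tnfrsf1b (TNFR2, which lacks a death domain) was at 329, 351 and 201 CPM in untreated wild-type libraries and at 4370, 4041 and 2117 CPM at 4 h, a 12-fold rise (log2 3.58 ± 0.49, adjusted p = 3.85e-06). It was at 4053, 3937 and 3716 CPM at 8 h and at 1122, 949.9 and 3458 CPM at 24 h (log2 2.65 ± 0.47 over 0 h, adjusted p = 0.000114). The library of the smaller set was the lowest at 0, 4 and 8 h and the highest at 24 h, and without library 12 the difference from 8 to 24 h, not called with it (log2 -1.08 ± 0.45, adjusted p = 0.0577), was -1.92 (adjusted p = 0.0014), and the rise at 24 h over 0 h was 1.81 in place of 2.65. With a term for the set, which estimates changes with LPS for the larger set, that rise was 1.59. The labelled knock-out libraries were at 375, 219.5 and 462 CPM untreated, 3956, 2868 and 4897 at 4 h (log2 3.47 ± 0.49), 4321, 4274 and 4377 at 8 h, and 574 and 1790 at 24 h. Here the rise at 24 h (log2 1.75 ± 0.49, adjusted p = 0.00765) was not called without library 23 (log2 0.71, adjusted p = 0.367) and was 2.35 without library 22. Tnfrsf1a (TNFR1, the death domain receptor) had the smallest standard errors of the 9 genes. It was at 165, 168 and 168 CPM untreated, 449, 415 and 350.4 at 4 h (2.42-fold, log2 1.28 ± 0.10, adjusted p = 3.25e-09), 388, 393 and 389 at 8 h (log2 1.22 ± 0.10) and 233, 222 and 219.7 at 24 h (log2 0.43 ± 0.10, adjusted p = 0.0013). Labelled knock-out libraries were at 160.2, 145 and 155 CPM untreated, 441, 366 and 459 at 4 h, 349, 371 and 355 at 8 h, and 231 and 208 at 24 h, with log2 changes over 0 h of 1.46 ± 0.10, 1.22 ± 0.10 and 0.52 ± 0.11.

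Per kilobase of exon, the ratio of Tnfrsf1b to Tnfrsf1a in wild-type cells was 1.19 ± 0.33 (SD, n = 3) untreated, 5.77 ± 1.45 at 4 h, 6.79 ± 0.30 at 8 h and 5.62 ± 4.39 at 24 h. Every treated wild-type library had a higher ratio than every untreated one, whereas in the labelled knock-out library 22 at 24 h lay below library 15 at 0 h. At 24 h libraries 10 and 11 were at 3.27 and 2.90 and library 12 at 10.7, so the mean of that group lies between separated values. The ratio in the labelled knock-out was 1.54 ± 0.50, 6.22 ± 0.97 and 8.20 ± 0.33 (n = 3 each) at 0, 4 and 8 h, and 1.68 and 5.84 in the 2 libraries at 24 h. No test was made on the ratio.

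**Figure D3:**
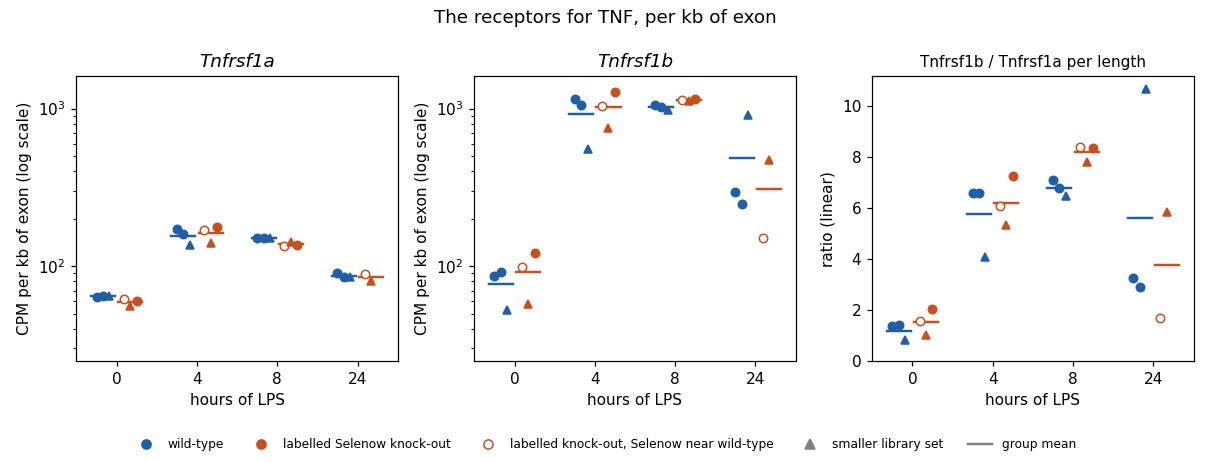
Level per kilobase of exon of Tnfrsf1a and Tnfrsf1b (CPM per kb, log scale) and their ratio (linear scale) in each library, with group means as bars. The ratio is between 0.81 and 2.02 in untreated libraries and above 4 in every library at 4 and 8 h, and the libraries at 24 h are spread from 1.68 to 10.7.

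Tnfrsf11a (RANK) rose modestly. Wild-type libraries were at 25.8, 34.4 and 33.0 CPM untreated, 52.5, 74.2 and 67.6 at 4 h (2.09-fold, log2 1.06 ± 0.17, adjusted p = 3.01e-05), 32.6, 36.2 and 50.9 at 8 h, and 47.1, 55.3 and 46.2 at 24 h (log2 0.67 ± 0.17, adjusted p = 0.00287). Labelled knock-out libraries were at 48.1, 48.5 and 40.7 CPM untreated, 105, 95.8 and 100.5 at 4 h (2.20-fold, log2 1.13 ± 0.17, adjusted p = 1.45e-05), 58.9, 81.3 and 58.6 at 8 h (log2 0.53 ± 0.17, adjusted p = 0.0121), and 69.1 and 82.6 at 24 h (log2 0.73 ± 0.19, adjusted p = 0.00443). In both genotypes the 4 h libraries were the highest on average, and the 8 h libraries were lower than those at 4 h. The rise at 8 h in the labelled knock-out was not called without library 15 or 20 (adjusted p = 0.0553 and 0.0942), nor the rise at 24 h without library 23 (0.0715).

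Ordered per kilobase of exon, untreated wild-type cells had most of Tnfrsf1b and Tnfrsf1a (76.9 ± 21.2 and 64.5 ± 0.81 CPM per kb, SD, n = 3), whose libraries overlapped. Tnfsf9 (12.1 ± 5.88) and Tnf (10.8 ± 4.33) also overlapped each other, followed by Tnfrsf11a (5.19 ± 0.77), Tnfsf10 (0.55 ± 0.09), Ltb (0.28 ± 0.01), Tnfsf15 (0.085 ± 0.015) and Lta (0.054 ± 0.023), each with no overlap to the next. At 4 h Tnf was first at 1216 ± 692 CPM per kb, with a range that overlapped Tnfrsf1b at 919 ± 319, and then came Tnfrsf1a (156 ± 19.3) and Tnfsf10 (103 ± 3.17). Tnfsf9 (40.3 ± 8.04) and Tnfsf15 (22.5 ± 9.10) overlapped at that time. At 8 and 24 h Tnfrsf1b was first again, at 1022 ± 44.9 and 483 ± 367 CPM per kb. In the labelled knock-out the same genes led at each time, with Tnf at 1199 ± 484 CPM per kb at 4 h and Tnfrsf1b at 92.2 ± 32.2, 1132 ± 13.5 and 310 ± 225 (n = 2) at 0, 8 and 24 h.

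Between genotypes, Tnfrsf11a was the only member called. Its labelled knock-out libraries were above the wild-type libraries at each time with no overlap, by log2 differences of 0.56 ± 0.17, 0.63 ± 0.17, 0.73 ± 0.17 and 0.61 ± 0.19. Averaged over times the difference was 0.63 ± 0.09, or 1.55-fold (adjusted p = 8.48e-05). The count of members called was 1 of 9 for the average (6.27% of all genes were called) and 1 of 9 at 8 h (2.20%, Tnfrsf11a, adjusted p = 0.028). It was 0 of 9 at 0 h (1.52%), 4 h (1.24%) and 24 h (1.19%), where the adjusted p of Tnfrsf11a was 0.141, 0.105 and 0.157. At an unadjusted p under 0.05 edgeR had Tnfrsf11a at each of these times, Ltb at 4 h and Tnfsf10 at 24 h. The share of all genes under that threshold was not computed. DESeq2 called 0, 1 and 0 members, the 1 being Tnfrsf11a at 4 h, and its calls over all genes are given below where they moved. Its share of all genes at 4 h is not given, so the 1 is not read as a result about the members. The 4 labelled knock-out libraries with near wild-type Selenow, at 48.1, 105, 58.9 and 69.1 CPM, were each above all wild-type libraries of their time, and without them the average difference was 0.67 ± 0.11 (adjusted p = 0.0018). The call at 8 h was lost without them (log2 0.81 ± 0.21, adjusted p = 0.0998), without library 7, 8 or 20 (adjusted p = 0.199, 0.0971 and 0.121) and in a fit of only the groups compared (0.158). With the library set as a factor, Tnfrsf11a was called at each time (adjusted p = 0.0072, 0.00467, 0.000717 and 0.00656) and on average (log2 0.63 ± 0.06, adjusted p = 1.23e-06).

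Tnfrsf11a is a gene of osteoclast precursors. The summed level of 6 osteoclast markers was 11.8 to 20.5 CPM in wild-type and 16.7 to 21.1 CPM in labelled knock-out libraries at 0 h. In the same order it was 30.8 to 39.8 and 29.3 to 45.6 CPM at 4 h, 29.9 to 45.3 and 35.1 to 49.1 at 8 h, and 27.8 to 35.1 and 31.0 to 38.4 at 24 h. These ranges overlapped at each time, and Calcr was at 0 in 9 libraries. Markers of neutrophils (8 genes) summed to 98.5 to 114 CPM in wild-type and 174 to 175 CPM in labelled knock-out libraries at 0 h. In the same order the sums were 69.8 to 88.8 and 119 to 153 CPM at 4 h. At 8 h they were 47.8 to 62.9 and 63.0 to 89.2 CPM, and at 24 h 5.25 to 7.83 and 16.3 to 19.03 CPM. The neutrophil sums of the genotypes did not overlap at any time. The part of osteoclast or neutrophil markers in the Tnfrsf11a difference was not tested. The gene for its ligand, Tnfsf11 (RANKL), had no read in any wild-type library and at most 6 in a labelled knock-out group, and its decoy receptor Tnfrsf11b (osteoprotegerin) was at 0.66 ± 0.19 CPM in wild-type and 0.38 ± 0.19 CPM in labelled knock-out cells at 4 h (n = 3 each).

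For the other 8 members the difference averaged over times lay between -0.50 ± 0.23 (Tnfsf10, adjusted p = 0.251) and 0.31 ± 0.16 (Ltb, adjusted p = 0.336). For Tnf it was 0.05 ± 0.25, and at 4 h, when Tnf peaked, -0.02 ± 0.48. Ltb was higher in all labelled knock-out libraries than in all wild-type libraries at 4 h (log2 1.03 ± 0.32), but on 10 to 31 counts a library and with an adjusted p of 0.232. For Tnfrsf1a the difference was between -0.12 and 0.06 at the 4 times, each with an SE of 0.10 or 0.11 and none called, although the ranges did not overlap at 0 and 8 h. No interaction of genotype and LPS was called for a member at 4, 8 or 24 h, by edgeR or DESeq2, and edgeR had none at an unadjusted p under 0.05 either. Of all genes, 0.0442%, 0.0442% and 0% were called in these tests.

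Fitting the library sets as a further factor within times gave more calls between genotypes. In that fit a genotype difference is shared by both sets, whereas a change with LPS is the one estimated for the larger set. Standard errors were smaller in 150 of 162 comparisons of members and larger in 12, all of Ltb, which lost its calls in wild-type cells at 8 h (adjusted p = 0.111) and 24 h (0.0533) and in the labelled knock-out from 8 to 24 h (0.121). The sets were found in these data, so these p-values may be too small. At 0 h Tnfsf9 was lower in the labelled knock-out (log2 -0.55 ± 0.12, adjusted p = 0.00588), which with Tnfrsf11a made 2 of 9 members where 13.6% of all genes were called. At 4 h and 8 h Tnfrsf11a alone was called (4.66% and 16.2% of all genes). At 24 h 5 of 9 were called (19.5% of all genes): Tnfrsf11a higher, and Lta (log2 -1.52 ± 0.37), Tnfsf10 (-1.16 ± 0.26), Tnfsf15 (-0.91 ± 0.20) and Tnfrsf1b (-0.89 ± 0.12) lower. That comparison has 2 labelled knock-out libraries, 1 in each set. Without library 12, in the fit that has no set term, the Lta and Tnfrsf1b differences at 24 h were 0.22 and 0.18 instead of -1.33 and -0.64, and those of Tnfsf10 and Tnfsf15 were -0.12 and -0.012 instead of -1.19 and -0.63. That run set wild-type libraries of the larger set alone against 1 labelled knock-out library of each set. Set and genotype are therefore mixed in these values. On average Tnfsf10 (-0.50 ± 0.12, adjusted p = 0.00529) and Tnfrsf11a were called (23.9% of all genes). That value of Tnfsf10 was -0.22 in the larger set alone (adjusted p = 0.0928) and, without the set term and library 12, -0.23, neither called. Interactions called with the term were Tnfsf9 at 4 h (0.82 ± 0.16, 0.874% of all genes), Tnfsf15 at 8 h (-1.25 ± 0.37, 12.7%) and Lta, Tnf, Tnfrsf1b and Tnfsf15 at 24 h (16.4%), with log2 differences in the rise over 0 h of -1.96 ± 0.61, -0.47 ± 0.15, -1.14 ± 0.16 and -1.73 ± 0.39 in the labelled knock-out relative to wild-type.

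**Figure D4:**
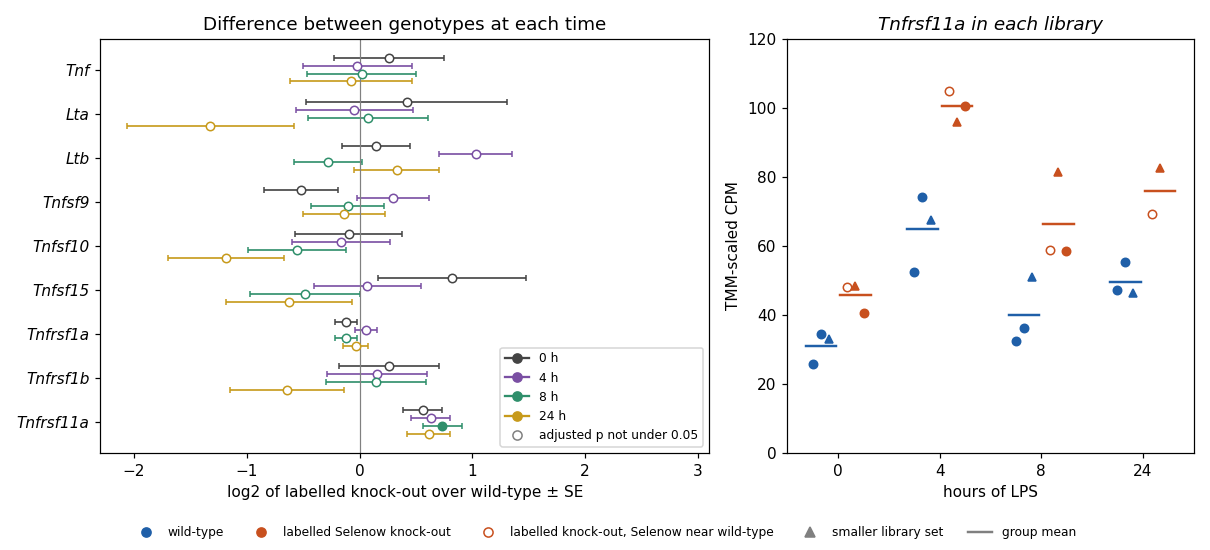
Left, log2 of labelled knock-out over wild-type ± SE of the 9 genes at each time from the fit without a set term, with open points for values that were not called. Right, Tnfrsf11a in each library (TMM-scaled CPM, linear scale), where the labelled knock-out libraries lie above wild-type at 0, 4, 8 and 24 h, those with near wild-type Selenow (open circles) included.

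The known partners of the members, chosen for that role after their values were seen, had differing levels. Tnfrsf9, the receptor of Tnfsf9, was among the most induced receptors, from 0.063 ± 0.048 CPM untreated, on 10 counts in all, to 18.2 ± 9.39 CPM at 4 h in wild-type cells (SD, n = 3). Tnfrsf10b, the death receptor of TRAIL in mice, was at 0.84 ± 0.21 CPM untreated and 1.35 ± 0.23 CPM at 4 h, a difference with an adjusted p of 0.0515. Tnfrsf25, the receptor of TL1A, had 13 counts over the 3 wild-type libraries at 4 h and was under the filter. Ltbr, the lymphotoxin beta receptor, went from 99.2 ± 4.29 to 64.0 ± 9.38 CPM at 4 h (log2 -0.63 ± 0.12, adjusted p = 0.000184), and at 8 h stood at 115.1 ± 9.001 CPM.

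Of 12 other TNF superfamily ligands, 7 passed the filter, and in wild-type cells at 4 h 3 rose and 1 fell, with a median log2 difference of 0.0035 beside -0.12 for all genes, of which 28.2% rose and 34.8% fell. Tnfsf8 (CD30 ligand) rose by log2 4.75 ± 0.46 and Tnfsf12 (TWEAK) fell (log2 -1.26 ± 0.22). Fasl, Cd40lg, Cd70, Tnfsf11 and Eda were under the filter. Of 25 other receptors of the family, 18 passed, 7 rose and 7 fell (median 0.25), beside the same shares of all genes. The largest rises, in genes averaging 5 CPM or more, were Tnfrsf9 (log2 8.12 ± 0.88, or 8.82 without library 3), Cd40 (6.97 ± 0.55), the death receptor Fas (4.796 ± 0.55) and Tnfrsf8, the receptor of Tnfsf8 (4.09 ± 0.68). In the labelled knock-out at 4 h 3 of the 7 ligands rose and 1 fell (median 0.66), and 8 of the 18 receptors rose and 7 fell (median 0.16), beside a median of -0.10 for all genes, of which 28% rose and 34.1% fell.

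Of 32 proteins that carry or limit the signal of TNF receptors, 19 rose and 5 fell in wild-type cells at 4 h (median log2 0.71; 28.2% of all genes rose and 34.8% fell), and 20 rose and 4 fell in the labelled knock-out (median 0.67). Rises were led by Tnfaip3 (A20, a ubiquitin-editing inhibitor of NF-kB, log2 7.21 ± 0.45), the adaptor Traf1 (5.85 ± 0.49), and the cell death inhibitors Cflar (3.89 ± 0.28) and Birc3 (3.37 ± 0.25). Tradd and Ripk1, which are recruited to the death domain of TNFR1 and were singled out after their values were seen, had log2 differences of -0.01 ± 0.11 and -0.11 ± 0.13, neither called. Of 16 genes for TNF shedding and the control of Tnf mRNA, 8 rose and 3 fell in wild-type cells (median 0.98), and 9 rose and 4 fell in the labelled knock-out (median 0.96). Rhbdf2 (iRhom2, which brings the TNF-cleaving protease to the cell surface) rose by 2.90 ± 0.18 and Adam17, that protease, by 1.16 ± 0.12 on the log2 scale. Among proteins that bind AU-rich or stem-loop elements and hasten mRNA decay, Zfp36 (tristetraprolin, 4.51 ± 0.35) and Zc3h12a (regnase-1, 4.35 ± 0.25) rose while Zfp36l2 fell (-4.53 ± 0.39).

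Between genotypes averaged over times, 1 of the 7 ligands was called (Tnfsf4, log2 0.71 ± 0.21, adjusted p = 0.0484), 1 of the 18 receptors (Tnfrsf21, -0.51 ± 0.10, adjusted p = 0.00377), 1 of the 32 signalling genes (Map3k5, 0.20 ± 0.05, adjusted p = 0.0145) and 3 of the 16 genes for shedding and mRNA control, beside 6.27% of all genes. The medians of the lists were -0.35, -0.10, -0.0069 and -0.033 in this order, beside 0.0035 for all genes. Those 3 were Khsrp, an mRNA decay factor (0.49 ± 0.06, adjusted p = 3.25e-05), Adam17 (0.25 ± 0.06, adjusted p = 0.0207) and Timp3, an inhibitor of Adam17 (2.19 ± 0.58, adjusted p = 0.0277). Timp3 was spread over 0.37 to 9.25 CPM within the labelled knock-out at 4 h. In the larger set alone its difference was 0.34 (adjusted p = 0.74), and leaving out library 1, 6, 7, 14, 17, 20 or 23 also ended the call (adjusted p up to 0.24). The summed level of 7 fibroblast markers at 4 h was 28.8 to 40.9 CPM in wild-type and 35.4 to 99 CPM in labelled knock-out libraries, and its part in Timp3 was not tested. The call of Tnfsf4 was lost without the 4 libraries with near wild-type Selenow (log2 0.83, adjusted p = 0.0832), in the larger set alone (log2 0.55, adjusted p = 0.149) and without any of 17 of the 23 libraries, and that of Map3k5 without the same 4 (log2 0.20, adjusted p = 0.136) and in the larger set alone (log2 0.15, adjusted p = 0.0683).

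By the correlation of log2 CPM over the 8 group means, a description with no test among 9333 or 9334 genes with a mean of at least 5 CPM, the genes most like Tnf were Mapk9 (r = 0.999), Edn1 and Ccnj (both 0.998). Those most like Lta were Mfsd7a (0.999), Cd40 and Lipg (both 0.996), and those most like Tnfsf10 were Zc3h12c, Spsb1 (both 0.999) and Tnfaip3 (0.998). Kat6a, Whamm and Zfp281 came closest to Tnfsf15 (0.996 to 0.997), and Cdh5, Cd40 and Wars to Tnfrsf1a (0.996 to 0.997). Gbp2 (0.999), Mir6381 (0.999) and Rhoc (0.997) came closest to Tnfrsf1b. Mir6381 lies within Gbp2 on the other strand, so reads of the pair cannot be told apart. Eif4e, Ctu2 and Abtb2 (0.981 to 0.985) were most like Tnfsf9. Tnfrsf11a (0.933 to 0.939, with Abt1, Mtrex and Mrpl15) and Ltb (0.920 to 0.937, with Atp6v1g1, Gstm1 and H3f3a) had the weakest matches. Among the members, Tnf and Tnfsf10 were most alike (r = 0.993), whereas the r of Ltb with its neighbours was 0.39 for Tnf and 0.43 for Lta. The 8 means share libraries across all genes, and r rests on few points.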

How the data were processed

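RNA-seq of 23 libraries was deposited by the authors as raw counts of read pairs per gene, not normalized. The header of the table and the submitters' processing notes record that pairs aligned with HISAT2 (version not given in the sources used here) were counted over exons with featureCounts 2.0.1 and the Ensembl release 101 annotation of GRCm38. Per the file headers, counting ignored strand, gave a pair that overlapped several genes to each of them, and left out multi-mapped pairs. The notes also name DESeq2. Symbols came from GENCODE mouse release 21, which named 55141 of 55401 genes, and levels per kilobase used the exonic length in the authors' table.

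Genes were filtered with filterByExpr, scaled by TMM and tested in edgeR 4.0.16 (R 4.3.3, limma 3.58.1) with glmQLFit and glmQLFTest on the 8 groups, with Benjamini-Hochberg adjustment and calls under 0.05. The SE was taken as the absolute log2 fold change over the root of its F statistic. Levels below 3 counts a library were read as undetected. The procedure was tested on simulated data.

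All members are named. From each list, up to 4 genes are named that were called in wild-type cells at 4 h, had a mean of at least 5 CPM and groups that did not overlap, by size of change, and up to 2 called between genotypes on average. The 3 genes most like each member were taken by Pearson's r. Partner genes, Tradd, Ripk1, Adam17, Tnfrsf22, Tnfrsf23 and Tnfrsf26 were chosen after their values were seen. The members and lists were chosen with earlier results of these data known. Alternatives were RLE and upper-quartile scaling, other filters, DESeq2 1.42.0, only the groups compared, a term for the library set, the larger set alone, and leaving out the 4 libraries with near wild-type Selenow or each library in turn. The result for 1 marker of another cell type, and the summed level that includes it, are not reported here.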

Additional observations from a re-analysis of the deposited data

How the results depend on the processing

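Of 69 called log2 changes of members with LPS, 55 kept their call and direction under every alternative run, 14 lost the call under some and 0 reversed. The average genotype difference of Tnfrsf11a kept its call in all of them. Precision was limited by 2 or 3 libraries a group, by the unlabelled library sets, by the 4 labelled knock-out libraries with near wild-type Selenow, and for Lta and Ltb by few counts. No paired analysis was possible because no replicate number of the labels occurs in more than 1 group. The library sets, found in the data, were fitted as a term instead. With that term a change with LPS is the one estimated for the larger set, so for such changes it is close to the larger set alone. The cause of the changes below was not tested.

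Counts of called genes that moved are given with the reported count in parentheses. With DESeq2, all-gene calls were 541 (274), 649 (397) and 429 (216) between genotypes at 0, 8 and 24 h and 36 (8), 201 (8) and 132 (0) for the interactions at 4, 8 and 24 h, and 1 member (0) was called between genotypes at 4 h. The all-gene count of DESeq2 between genotypes at 4 h is not listed here. RLE scaling gave 1 (0), the 1 CPM filter 3 (0) and no filter 8 (0) for the interaction at 24 h. RLE scaling, upper-quartile scaling and no filter each called 0 (1) ligands of the list between genotypes on average, and no filter 0 (1) signalling genes. With only the groups compared, calls between genotypes were 101 (274) at 0 h and 34 (216) at 24 h, interactions 4 (8), 0 (8) and 1 (0), and members at 8 h 0 (1).

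With the term for the library set, all-gene calls between genotypes were 2467 (274), 842 (224), 2931 (397) and 3530 (216) at 0, 4, 8 and 24 h and 4321 (1134) on average, and interactions 158 (8), 2302 (8) and 2957 (0). List genes called on average were 6 (1) ligands, 7 (1) receptors, 9 (1) signalling genes and 8 (3) genes for shedding and mRNA control. Members called between genotypes were 2 (0), 1 (0) and 5 (0) at 0, 4 and 24 h and 2 (1) on average, interactions 1, 1 and 4 (0 each), and with LPS in wild-type cells 8 (5) from 4 to 8 h and 9 (5) from 8 to 24 h. The larger set alone gave 1199, 674, 2650 and 998 genes between genotypes, 2440 on average, interactions 68, 1667 and 787, 3 receptors, 3 signalling genes and 5 genes for shedding and mRNA control. It called 2, 1, 2 and 2 members between genotypes at 0, 4, 8 and 24 h, 1 and 3 in the interactions at 8 and 24 h, and 8 (5) from 8 to 24 h in wild-type cells. Its calls at 24 h between genotypes and in the interaction rest on library 22 alone, which has near wild-type Selenow and is assumed to vary like the other groups. In wild-type cells, all genes called as reported were 8452 from 4 to 8 h and 8128 from 8 to 24 h. Their counts with the set term and in the larger set are not listed here. The member counts of these LPS comparisons are therefore not read as a result about the members.

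Without the 4 libraries, calls between genotypes were 113, 144, 179 and 93 and on average 591 (1134), interactions 3 and 0 at 4 and 8 h (8 each), and in the labelled knock-out 5015 (7849) from 0 to 24 h and 2106 (6272) from 8 to 24 h. Members were 3 (5) from 4 to 8 h, 3 (6) from 8 to 24 h and 0 (1) between genotypes at 8 h, and list ligands and signalling genes 0 (1 each).

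Leaving out 1 library at a time, all-gene calls in the labelled knock-out ranged from 4920 to 7468 for 24 against 0 h and from 3168 to 5527 for 24 against 8 h. Between genotypes they ranged from 132 to 248 at 0 h, 226 to 446 at 8 h and 122 to 282 at 24 h, and for interactions from 4 to 8, 0 to 8 and 0 to 4. Members ranged from 3 to 7 in the labelled knock-out at 24 h and from 0 to 1 between genotypes at 8 h. List genes on average ranged from 0 to 1 ligands, 1 to 2 receptors, 1 to 2 signalling genes and 1 to 3 for shedding and mRNA control.

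Of the log2 values of members followed through the alternatives, these changed sign, none of them called as reported. With the set term, Lta in the labelled knock-out at 24 h was -0.50, and Tnfrsf1b from 4 to 8 h was -0.074 there and -0.028 in wild-type cells. In the larger set, Tnfrsf1b was -0.031 and -0.063 for the same, Ltb in the labelled knock-out at 8 h -0.048 and Tnf between genotypes on average -0.032. The small genotype difference of Tnf at 4 h was 0.049 with the set term, 0.18 in the larger set and 0.15 without the 4 libraries, and that of Tnfrsf1a at 24 h was 0.011 in the larger set. Without the 4 libraries, the average genotype differences were 0.12 for Tnfrsf1b and 0.20 for Tnfsf15. Leaving out 1 library at a time, the change from 4 to 8 h in the labelled knock-out ranged from -0.84 to 0.054 for Lta, -0.36 to 0.078 for Ltb and -0.034 to 0.34 for Tnfrsf1b. The same change in wild-type cells ranged from -0.15 to 0.026 for Tnfrsf1a and -0.11 to 0.34 for Tnfrsf1b, and that from 8 to 24 h from -1.13 to 0.11 for Tnfsf15. The genotype difference at 4 h ranged from -0.40 to 0.55 for Tnf and -0.036 to 0.15 for Tnfrsf1a, that at 24 h from -1.88 to 0.22 for Lta, -1.68 to 0.18 for Tnfrsf1b and -0.11 to 0.040 for Tnfrsf1a, and the interaction of Tnf at 24 h from -0.85 to 0.095. The average genotype difference ranged from -0.36 to 0.17 for Lta, -0.11 to 0.19 for Tnf, -0.28 to 0.19 for Tnfrsf1b, -0.31 to 0.098 for Tnfsf15 and -0.26 to 0.00031 for Tnfsf9.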

Other observations

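Tnfrsf22 and Tnfrsf23 encode decoy receptors that bind TRAIL without a death domain, and Tnfrsf26 is a close relative. They were chosen after their values were seen, and as similar genes whose multi-mapped reads were not counted their levels are uncertain. In wild-type cells Tnfrsf23 was at 7.68 ± 1.19 CPM untreated and 78.8 ± 5.56 CPM at 24 h (SD, n = 3), a log2 rise of 3.36 ± 0.37, after a fall at 4 h (log2 -1.09). Tnfrsf26 fell at 4 h (log2 -1.99) and was at 76.1 ± 9.20 CPM at 24 h, a rise of 2.99 ± 0.52. Tnfrsf22 fell at 4 h (log2 -1.54), and its difference at 24 h, 0.63 ± 0.39, was not called (edgeR, adjusted p = 0.179). In the labelled knock-out at 24 h Tnfrsf23 was at 43.5 ± 2.76 CPM and Tnfrsf26 at 36.4 ± 4.33 CPM (n = 2). These levels lay below all wild-type libraries of that time, but the differences, log2 -0.86 ± 0.39 and -1.06 ± 0.56, were not called (edgeR, adjusted p = 0.391 and 0.478).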
